A study of Mus musculus with 27 samples.

Results

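The 10 genes described here encode beta-catenin (Ctnnb1), nuclear proteins that carry, restrain or relay its signal (Ctnnbip1, Tle1, Tle2, Tle3, Hdac2, Tcf7l2, Sox9 and Med12), and Tcf3, which under this symbol is an E protein gene and not a TCF/LEF factor. They were a named list of 10 out of the 18820 genes with at least 1 single-gene probe set, and for each gene the probe set with the highest mean over all 27 arrays was taken. The list was chosen by earlier results on these same pups, and several of the 10 had been singled out because they responded to the diet, so the diet values below describe the genes and the counts are no independent evidence. All 10 were measured by 1 probe set each, reached a linear signal of 20 on all 27 arrays, and were among the 13279 genes tested.

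The arrays measured whole-liver RNA of 2-week-old C57BL/6 pups, 1 array per pup. Dams had eaten a Western-style high fat diet (WSD, 45% of energy as fat and 196.5 mg cholesterol per kg) or a low fat diet (LFD, 10% of energy as fat and 18.0 mg cholesterol per kg) for 6 weeks before mating and through gestation and lactation. This gave 6 males of WSD dams (m-WS), 6 males of LFD dams (m-LF), 6 females of WSD dams (f-WS) and 9 females of LFD dams (f-LF), all before weaning. The array names carry a number (39, 40 and 48 for WSD, 37, 49 and 50 for LFD) whose meaning the labels do not give. Each number was used in 1 diet only, and p-values measure the spread between these pups, which may share dams.

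In canonical Wnt signalling beta-catenin is normally destroyed in the cytoplasm. When a Wnt ligand stops that destruction, beta-catenin enters the nucleus, binds a TCF/LEF factor and displaces the Groucho/TLE corepressors, which otherwise hold target genes silent together with histone deacetylases. In the liver this programme is strongest in hepatocytes around the central vein, where it drives glutamine synthesis and much of drug metabolism.

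Upstream sequence is shown first for 3 of the genes that changed in males, to let their start regions be compared with that of Lect2, a liver target of beta-catenin. Each line gives the 100 bases just outside the gene's outermost annotated start (RefSeq, GRCm38.p6), 5′ to 3′ on the gene's strand. Capitals mark the GC box GGGCGG, read on either strand, or, in Lect2, the TCF/LEF core ATCAAAG.
Ctnnbip1, chr4:149518141-149518240, plus strand: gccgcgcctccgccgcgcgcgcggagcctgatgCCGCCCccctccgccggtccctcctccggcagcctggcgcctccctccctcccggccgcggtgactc
Tle3, chr9:61372226-61372325, plus strand: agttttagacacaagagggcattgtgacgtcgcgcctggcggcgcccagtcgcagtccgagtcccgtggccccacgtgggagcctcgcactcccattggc
Tle1, chr4:72200990-72201089, minus strand: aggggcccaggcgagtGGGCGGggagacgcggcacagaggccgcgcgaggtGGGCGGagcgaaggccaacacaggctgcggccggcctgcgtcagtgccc
Lect2, chr13:56548560-56548659, minus strand: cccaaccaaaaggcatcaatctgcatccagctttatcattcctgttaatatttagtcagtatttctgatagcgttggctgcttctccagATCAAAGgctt
The table of start regions (250 bases before to 50 after a transcript start, which for some genes lies inside the gene's outermost bounds) matched 9 of the 10 genes with 12 windows. On either strand, ATCAAAG was in 0 of these 12 windows, against 3.73% of all 32851 windows of that length, and GGGCGG was in 9 of 12, against 35.7% of all. Of 11 genes on a list of beta-catenin targets of liver that matched, 3 held ATCAAAG: Lect2, Slc1a2 and Sp5. The windows of the 9 genes were between 42% and 75.3% G or C, against a median of 52.7% over all windows. A match or its absence describes these letters only.

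A sex check came before the comparisons. Xist, the RNA of the inactive X chromosome, stood at 7.92 log2 units in m-WS1 and 9.30 in m-LF6, against 3.25 to 4.50 in the other 10 males and at least 11.67 in females, while 3 Y-linked genes were at 6.98 or more in all 12 males and at most 3.70 in females. Values without m-LF6 and m-WS1 are therefore given for the genes called in males. Among the LFD males, m-LF6 was also the highest in Ctnnbip1, Tle3, Tcf3 and Sox9 and the lowest in Tle1. Leaving out m-LF6 therefore enlarges the changes of these genes by itself, and the larger values are no independent evidence.

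In males, maternal WSD went with more transcript of Ctnnbip1, Tle3, Tcf3 and Sox9 and less of Tle1, by 1.18-fold to 1.35-fold upwards and to 0.785 of the LFD level for Tle1. In females Ctnnbip1, Tle3 and Hdac2 were higher, by 1.11-fold to 1.13-fold. Transcript of Ctnnb1, the beta-catenin gene, stayed within 0.02 log2 units of LFD in both sexes, and protein was not measured. At p of at most 0.01 in the limma fit over all 13279 genes, 4 of the 10 rose and 1 fell in males, where 2.79% of all genes were called higher and 2.34% lower. In females 3 rose and 0 fell, where 3.66% of all genes were called higher and 1.48% lower. Since the genes were picked with these contrasts known, nothing is read from those shares. After Benjamini-Hochberg adjustment over all genes, 1 of the 10 (Ctnnbip1 in males, adjusted p = 0.0402) was under 0.05, where 0.452% of all genes were, and 0 of the 10 were in females, where 0.294% were. That adjusted call was not stable: with pups sharing number and sex averaged the adjusted p of Ctnnbip1 was 0.418 and 0 of all genes passed in males, with the number as a random block it was 0.117, and it stayed under 0.05 in 10 of 21 alternatives other than left-out single pups. Of the 12 males, leaving out either m-LF6 or m-WS2 kept it under 0.05, and leaving out any of the other 10 did not. Without m-LF6 and m-WS1 together, 3 of the 10 passed in males (Ctnnbip1, Tle3 and Tcf3), as did 96 higher and 123 lower genes among all tested. For Ctnnbip1 the adjusted p was 0.00265 without m-LF6 alone and 0.0715 without m-WS1 alone. Over all genes, 136 higher and 136 lower passed without m-LF6 alone, and 15 and 26 without m-WS1 alone.

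**Figure D1:**
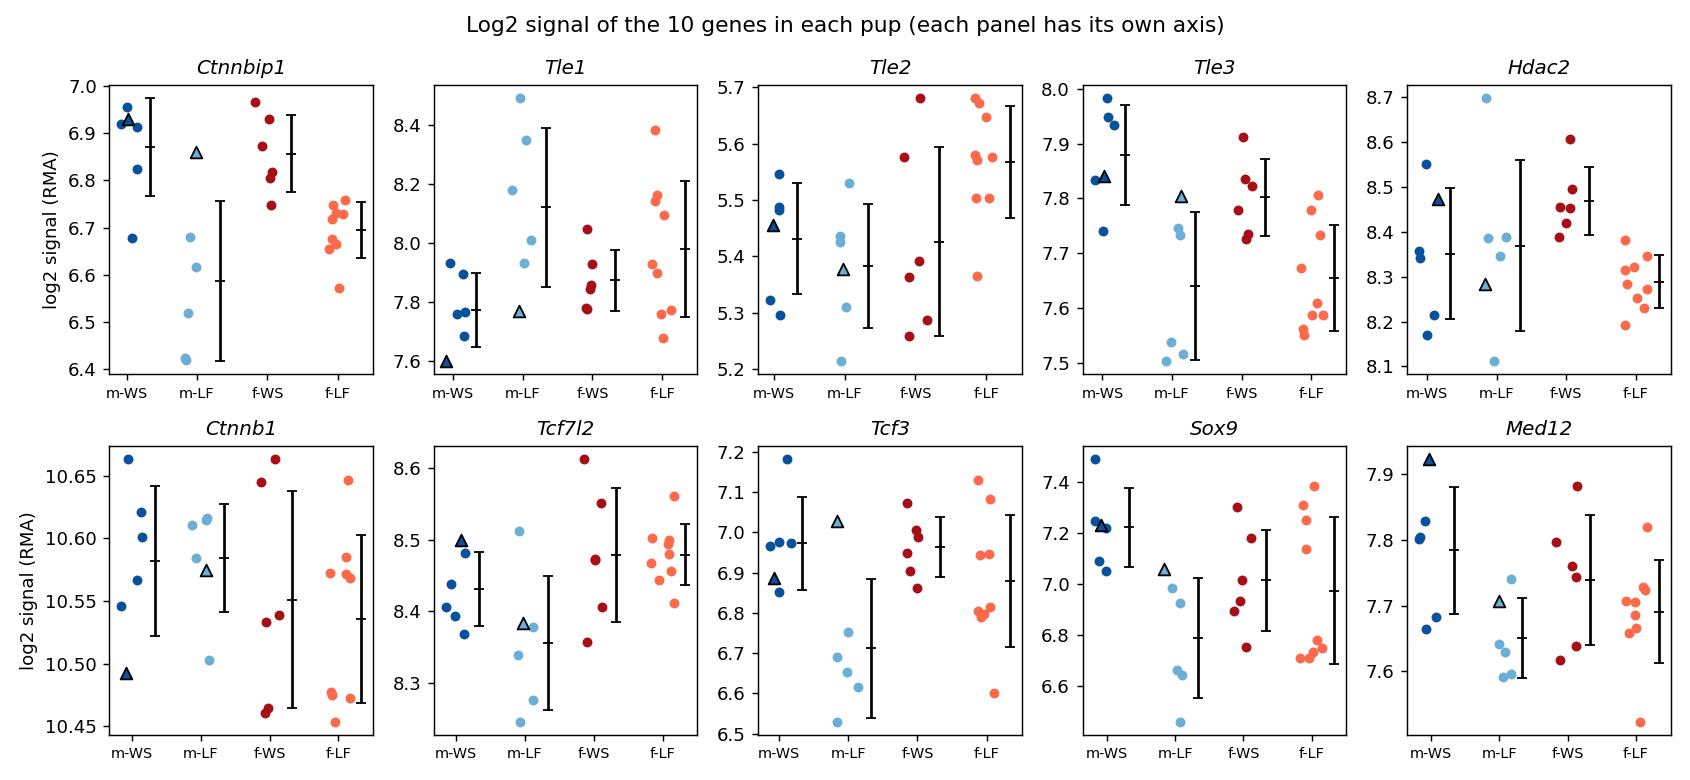
Log2 signal (RMA) of the 10 genes in each pup, with m-WS left of m-LF and f-WS left of f-LF; each dot is 1 pup, triangles are m-WS1 and m-LF6, and bars give mean ± SD. In the Ctnnbip1 panel m-LF6 (6.86) sits among the m-WS pups, and in the Hdac2 panel all 6 f-WS pups lie above all 9 f-LF pups.

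**Figure D2:**
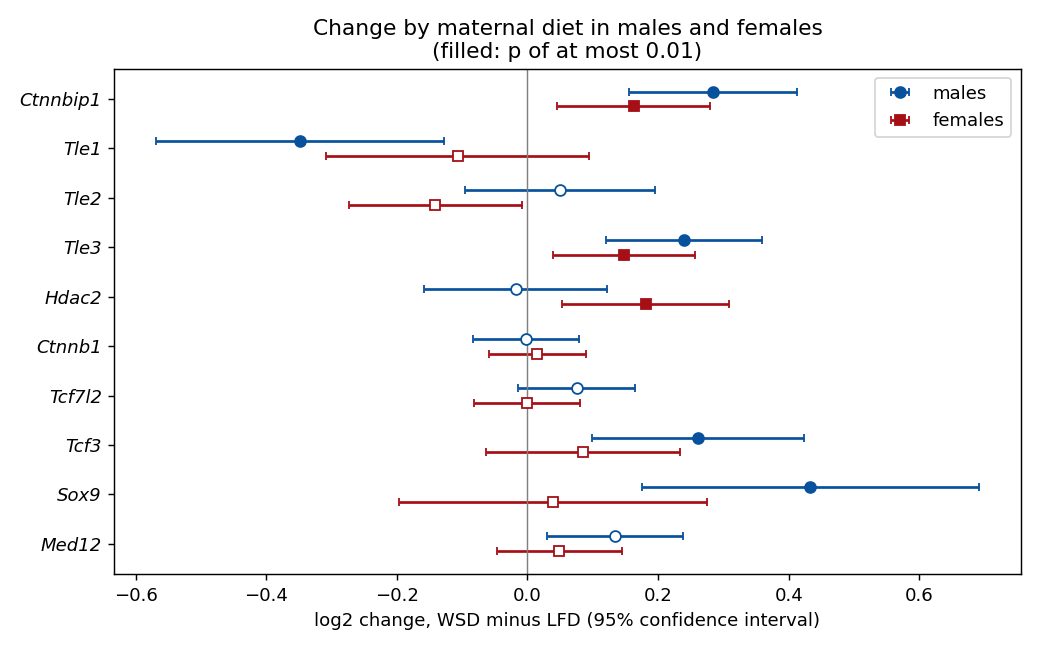
Log2 change (WSD minus LFD) of each gene with its 95% confidence interval, males as circles and females as squares; filled symbols have p of at most 0.01. Tle1 is the called gene left of 0, at -0.35 in males.

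Ctnnb1 encodes beta-catenin, the coactivator that Wnt signalling lets into the nucleus. Its log2 signal ran from a lowest of 10.49 over a median of 10.58 to a highest of 10.66 in m-WS, and 10.50, 10.60 and 10.62 in m-LF. The f-WS pups had 10.46, 10.54 and 10.66, and the f-LF pups 10.45, 10.57 and 10.65, again as lowest, median and highest. All 4 groups covered nearly the same range. The change was -0.00 ± 0.04 log2 units in males (SE, adjusted p = 0.990) and 0.02 ± 0.04 in females (adjusted p = 0.894), with 95% confidence intervals of -0.08 to 0.08 and -0.06 to 0.09.

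Tcf7l2 encodes a TCF factor through which beta-catenin reaches hepatocyte genes. In males its lowest, median and highest values were 8.37, 8.42 and 8.50 in m-WS and 8.25, 8.36 and 8.51 in m-LF. In females they were 8.36, 8.47 and 8.61 in f-WS and 8.41, 8.48 and 8.56 in f-LF. The diet groups overlapped in both sexes. The change was 0.08 ± 0.04 in males (adjusted p = 0.482) and -0.00 ± 0.04 in females (adjusted p = 0.996).

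Tcf3 needs a word on its name. The gene under this symbol here (Entrez 21423) encodes the E proteins E12 and E47, basic helix-loop-helix factors required for B lymphocyte development, whereas the TCF/LEF factor that once shared the name is Tcf7l1. Tcf3 had 6.85, 6.97 and 7.18 in m-WS as lowest, median and highest, against 6.53, 6.67 and 7.03 in m-LF. The high LFD male was m-LF6, and the other 5 LFD males were at 6.75 or below, under every WSD male. The rise was 0.26 ± 0.08 (1.20-fold, adjusted p = 0.112), and 0.34 without m-LF6 and m-WS1 (adjusted p = 0.0243), but it was not called without m-LF1 (0.22, adjusted p = 0.214) or without m-WS6 (0.22, adjusted p = 0.229). In females the values were 6.86, 6.97 and 7.07 in f-WS and 6.60, 6.81 and 7.13 in f-LF, with a difference of 0.08 ± 0.07 (adjusted p = 0.650). Tcf7l1 differed by 0.01 ± 0.06 in males (adjusted p = 0.985) and -0.07 ± 0.05 in females (adjusted p = 0.566).

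B lymphocyte markers moved with Tcf3 and with several others of the 10. Of 7 tested markers 4 rose in males (Igll1 by 1.14, Ebf1 by 0.89, Cd79a by 0.84 and Pax5 by 0.72 log2 units), all 7 were higher in WSD males, and their median change was 0.72 against 0.01 over all genes. In females 0 of the 7 were called and the median was 0.23. Summed over the 8 measured markers, the linear signal was 724 to 1078 in m-WS and 393 to 1004 in m-LF, where m-LF6 had the 1004 and the other 5 at most 543. The pre-B receptor gene Vpreb1 was below 20 on all arrays. Over the 27 pups Tcf3 correlated with the log2 of that sum at r = 0.79, and at r = 0.69 after group means were removed. The same sum ran with Tle1 at r = -0.68 (-0.54 after group means were removed), Ctnnbip1 at 0.64 (0.41), Med12 at 0.59 (0.44), Tle3 at 0.55 (0.34) and Sox9 at 0.54 (0.36). The part of lymphocyte RNA in these values was not tested, and in whole liver more cells of a type and more RNA per cell cannot be told apart.

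**Figure D3:**
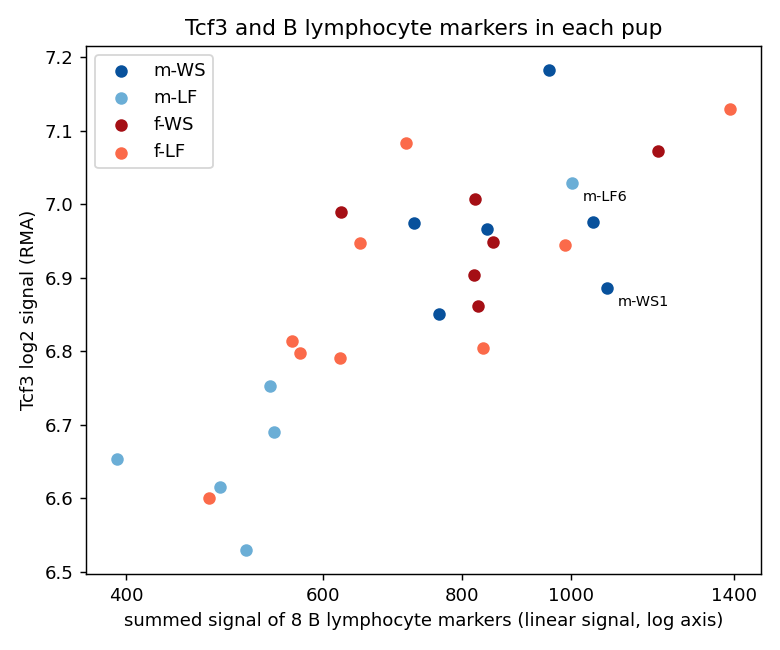
Tcf3 log2 signal (RMA) against the summed linear signal of 8 B lymphocyte markers (log axis), 1 dot per pup, coloured by group. Pups with more marker signal had more Tcf3 (r = 0.79 over 27 pups, a description with no test), and m-LF6 lies with the m-WS pups.

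Ctnnbip1 encodes ICAT, a small protein that sits on beta-catenin and keeps it from TCF factors. Its lowest, median and highest values were 6.68, 6.92 and 6.96 in m-WS, against 6.42, 6.57 and 6.86 in m-LF. Of the WSD males 4 of 6 were above the highest LFD male, m-LF6, and m-WS2 was the low one. The rise was 0.28 ± 0.06 log2 units, or 1.22-fold (95% confidence interval 0.16 to 0.41, adjusted p = 0.0402), and 0.33 without m-LF6 and m-WS1 (adjusted p = 0.00777). The B lymphocyte sum given above moved with it. In females the values were 6.75, 6.85 and 6.97 in f-WS, against 6.57, 6.72 and 6.76 in f-LF, and 5 of 6 WSD females were above every LFD female. That rise was 0.16 ± 0.06, or 1.12-fold (adjusted p = 0.181).

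Sox9 encodes an HMG-box factor that marks bile duct and progenitor cells and can promote the breakdown of beta-catenin. It had 7.05, 7.22 and 7.49 in m-WS as lowest, median and highest, against 6.46, 6.79 and 7.06 in m-LF. Of the WSD males 5 of 6 were above the highest LFD male. That highest LFD male was m-LF6. The rise of 0.43 ± 0.13, or 1.35-fold, was the largest among the 10 in males (adjusted p = 0.101), and it was 0.49 without m-LF6 and m-WS1 (adjusted p = 0.0729). In females the groups covered each other, with 6.75, 6.97 and 7.30 in f-WS and 6.71, 6.78 and 7.38 in f-LF, and the difference was 0.04 ± 0.12 (adjusted p = 0.918). The LFD females split into 4 pups at 7.14 or more and 5 at 6.78 or less. Bile duct markers showed 0 calls among 4 tested in males, and all 4 were lower in WSD males, with a median of -0.49 (Krt19 by -0.72, adjusted p = 0.256, Krt7 by -0.27, adjusted p = 0.298). Cftr was below 20 on all arrays. Summed over the 5 measured markers, m-LF2 (424) and m-LF4 (529) were high. The other LFD males had at most 173, and the WSD males had 148 to 170. With the bile duct sum, Sox9 had r = -0.28 over the 27 pups and -0.10 after group means were removed. Sox9 ran with the summed neutrophil and myeloid precursor markers at r = 0.61 over the 27 pups and 0.49 after group means were removed. It ran with the B lymphocyte sum as well, and against the summed hepatocyte markers at r = -0.47 (-0.63 after group means were removed). The part of any of these cell types was not tested.

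Tle1 encodes a Groucho corepressor and was the only gene of the 10 that fell in males. Its lowest, median and highest values were 7.60, 7.76 and 7.93 in m-WS, against 7.77, 8.09 and 8.49 in m-LF. Of the WSD males 4 of 6 were below the lowest LFD male, m-LF6. The change was -0.35 ± 0.11 (adjusted p = 0.117), and -0.38 without m-LF6 and m-WS1 (adjusted p = 0.0736). In females it was -0.11 ± 0.10 (adjusted p = 0.678), with 7.78, 7.85 and 8.05 in f-WS and 7.68, 7.93 and 8.38 in f-LF. The highest Tle1 values among LFD males belonged to m-LF2 (8.49) and m-LF4 (8.35), whose summed signal of 5 bile duct markers (424 and 529) was also high, against at most 173 in the other LFD males and at most 170 in m-WS. Without either pup Tle1 was no longer called (-0.27 with adjusted p = 0.266 without m-LF2, and -0.30 with adjusted p = 0.242 without m-LF4), and the part of bile duct RNA was not tested.

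Tle1 and Sox9 ran opposite to each other from pup to pup, with r = -0.75 over 27 pups and -0.65 after group means were removed. The 4 LFD females highest in Sox9 were also the 4 lowest in Tle1 (7.68 to 7.90, against 7.93 to 8.38 in the other 5). Of the 45 pairs among the 10 genes, this was the most negative r, and Ctnnbip1 with Tcf3 had the most positive one, at 0.70 over all pups and 0.52 after group means were removed. These r values share the same arrays and describe the pups with no test.

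Tle3, another Groucho corepressor, had 7.74, 7.89 and 7.98 in m-WS as lowest, median and highest, against 7.50, 7.64 and 7.80 in m-LF. Of the WSD males 5 of 6 were above the highest LFD male. That highest LFD male was m-LF6. The rise was 0.24 ± 0.06, or 1.18-fold (adjusted p = 0.0538), and without m-LF6 and m-WS1 it was 0.28 and passed adjustment (adjusted p = 0.0211). In females the values were 7.73, 7.80 and 7.91 in f-WS, against 7.55, 7.61 and 7.81 in f-LF, a rise of 0.15 ± 0.05, or 1.11-fold (adjusted p = 0.193). In females the groups overlapped, with 3 of 6 WSD pups above every LFD pup.

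Tle2 encodes a further Groucho corepressor. Its lowest, median and highest values were 5.30, 5.47 and 5.55 in m-WS and 5.21, 5.40 and 5.53 in m-LF, a difference of 0.05 ± 0.07 (adjusted p = 0.832). In females they were 5.26, 5.38 and 5.68 in f-WS and 5.37, 5.58 and 5.68 in f-LF, a difference of -0.14 ± 0.06 (adjusted p = 0.315). Diet groups overlapped in both sexes, although 3 of 6 WSD females were below every LFD female.

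Hdac2 encodes a histone deacetylase recruited by TLE proteins. It separated the females, with 8.39, 8.45 and 8.61 in f-WS as lowest, median and highest, against 8.19, 8.28 and 8.38 in f-LF. Every WSD female was above every LFD female, which held for 0.324% of all genes in females. The rise was 0.18 ± 0.06, or 1.13-fold (adjusted p = 0.172). In males the values were 8.17, 8.35 and 8.55 in m-WS and 8.11, 8.37 and 8.70 in m-LF, and the difference was -0.02 ± 0.07 (adjusted p = 0.953). None of the 10 genes separated the males in this way, where 0.715% of all genes had every WSD pup above every LFD pup.

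Med12 encodes a subunit of the kinase module of Mediator that can bind beta-catenin. It had 7.66, 7.80 and 7.92 in m-WS as lowest, median and highest, against 7.59, 7.63 and 7.74 in m-LF, and 4 of 6 WSD males were above every LFD male. The difference of 0.13 ± 0.05 missed the threshold of 0.01 (adjusted p = 0.222). In females it was 0.05 ± 0.05 (adjusted p = 0.694), with 7.62, 7.75 and 7.88 in f-WS and 7.52, 7.71 and 7.82 in f-LF.

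The calls changed with the arrays used, as did the counts of calls over all genes. Number 48 held 4 of the 6 m-WS pups, and without it none of the 5 male calls remained, although all 5 kept their direction (Ctnnbip1 0.22, Sox9 0.35, Tcf3 0.22, Tle3 0.20 and Tle1 -0.36), while Med12 was then called (0.21). Without number 37 (2 of the m-LF pups), Sox9 (0.31), Tcf3 (0.23) and Tle1 (-0.28) were not called, and without number 49 Tcf3 (0.23) and Tle1 (-0.28) were not. Averaging pups that shared both number and sex left Ctnnbip1 alone at p of at most 0.01 in males, with an adjusted p of 0.418, and none in females. The prefix of the array name, also not explained in the labels, crossed the groups: on G073 arrays the male change was 0.41 for Ctnnbip1, 0.48 for Sox9, 0.28 for Tcf3, 0.22 for Tle3 and -0.41 for Tle1, with Tle3 not called. On G074 arrays it was 0.07 for Ctnnbip1, 0.36 for Sox9, 0.15 for Tcf3, 0.24 for Tle3 and -0.29 for Tle1, with none called. The G074 arrays held 3 m-WS and 2 m-LF pups, and the G073 arrays held 3 and 4. In females the changes were 0.16 for Ctnnbip1 on both, 0.16 on G073 and 0.21 on G074 for Hdac2, and 0.17 on G073 and 0.11 on G074 for Tle3, with none called. With the number as a random block (correlation 0.0812) all 5 male calls held and Hdac2 alone held in females. Without m-LF6 and m-WS1 all 5 male calls and all 3 female calls held. Leaving out 1 pup at a time gave between 4 and 6 calls in males and between 0 and 3 in females. Over all genes, male calls were 371 higher and 311 lower in the full fit. They were 202 and 174 without number 48, and 51 and 42 on G074 arrays.

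**Figure D4:**
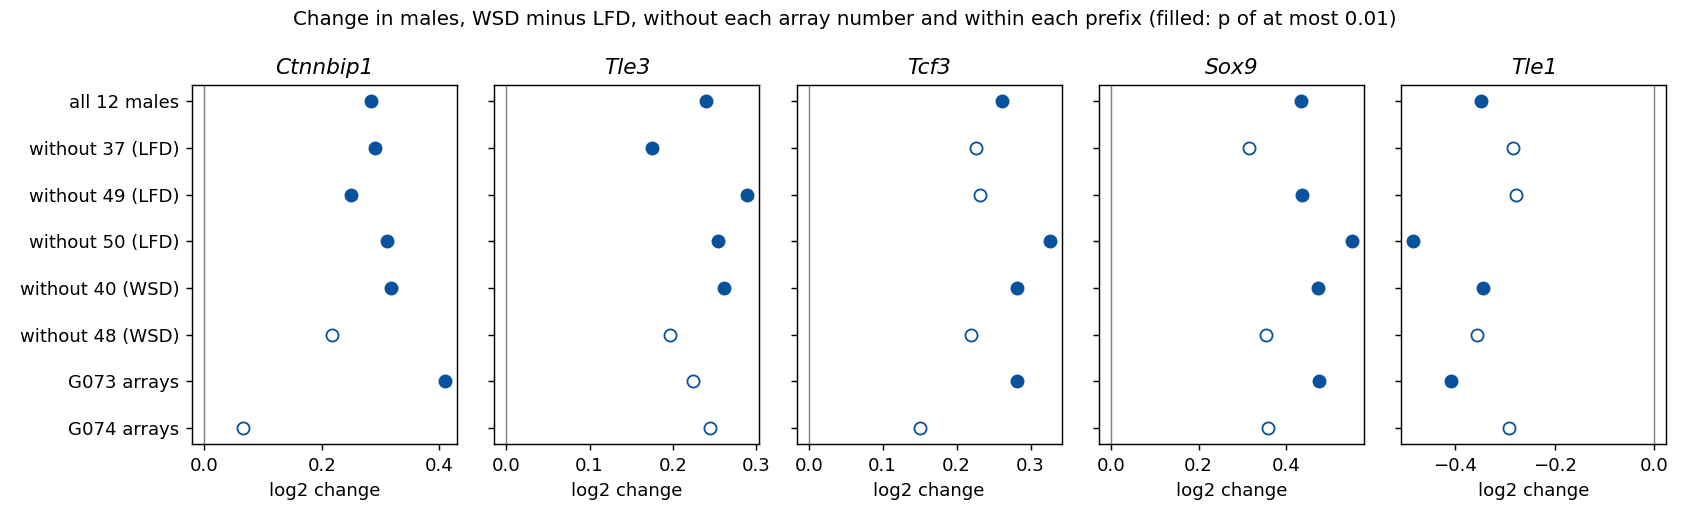
Log2 change in males (WSD minus LFD) of the 5 genes called there, over all 12 males, without each array number, and within each array prefix; filled symbols have p of at most 0.01. All symbols keep their side of 0, and all 5 are open without number 48 (2 m-WS pups left) and on G074 arrays (3 m-WS and 2 m-LF pups).

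The difference between the male and the female response was tested directly. At p of at most 0.01 it was called for 0 of the 10 genes by limma, where 2.45% of all genes were. At an unadjusted p under 0.05 there were 2: the male response of Sox9 exceeded that of females by 0.39 ± 0.17 (adjusted p = 0.452), and that of Hdac2 was below it by -0.20 ± 0.09 (adjusted p = 0.492). Hence the calls of Tle1, Tcf3 and Sox9 in males and of Hdac2 in females are not shown to differ between the sexes. For Ctnnbip1 the difference was 0.12 ± 0.09 (adjusted p = 0.663), and for Tle3 it was 0.09 ± 0.08 (adjusted p = 0.735).

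Between the sexes on LFD, males had less Tcf7l2 (-0.12 ± 0.04) and less Tle2 (-0.18 ± 0.06) than females, both with an adjusted p of 0.693, and 0.881% of all genes were called lower in males. The m-LF range of Tcf7l2 (8.25 to 8.51) and the f-LF range (8.41 to 8.56) overlapped, as did those of Tle2 (5.21 to 5.53 in m-LF and 5.37 to 5.68 in f-LF). Tcf3 (-0.17 ± 0.07) and Ctnnbip1 (-0.11 ± 0.06) were also lower in LFD males without reaching the threshold (adjusted p = 0.721 for Tcf3 and 0.755 for Ctnnbip1). On WSD, 0 of the 10 differed between males and females by limma (0 at an unadjusted p under 0.05), where 3.25% of all genes were called. The WSD difference between the sexes was 0.01 ± 0.08 for Tcf3 and 0.01 ± 0.06 for Ctnnbip1.

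The other genes of the pathway were taken from lists of known function. Of the remaining TCF/LEF factors 2 were measured, and neither passed in males or females: Lef1 changed by 0.31 ± 0.11 in males (adjusted p = 0.202). Of 13 coactivators such as Smarca4 and Tbl1xr1, 0 rose and 0 fell in either sex by limma, with median changes of 0.04 in males and -0.01 in females, and the closest were Smarca4 (0.10, adjusted p = 0.351) and Tbl1xr1 (0.15, adjusted p = 0.377) in females. Of 14 further corepressors and nuclear inhibitors, 1 fell in males (the kinase Hipk2, -0.14 ± 0.05, adjusted p = 0.172) and 2 rose in females (Hdac3, 0.14 ± 0.05, adjusted p = 0.157, and Ctbp1, 0.09 ± 0.03, adjusted p = 0.193). Of 6 other subunits and paralogs of the Mediator kinase module, Cdk19 rose in males (0.20 ± 0.07, adjusted p = 0.191) and the Med12 paralog Med12l rose in females (0.28 ± 0.08, adjusted p = 0.111). A list of 14 genes held parts of the destruction complex, which marks beta-catenin for breakdown, and regulators of that complex. Of these 14, 0 were called in males and 2 casein kinases rose in females (Csnk1a1 by 0.10 and Csnk1d by 0.09). Of 6 dimer partners and antagonists of Tcf3, 0 were called, and Tcf12 came closest (-0.10 in males, adjusted p = 0.197).

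Of known targets of beta-catenin in liver, 7 of 19 fell in males and 12 did not pass, where 2.34% of all genes were called lower. On the list (Axin2 is also on the destruction complex list, and Cyp2e1 among hepatocyte markers), 0 rose in males, 18 of 19 had a negative change, and the median was -0.28 against 0.01 over all genes. The ones that fell included Glul, which makes glutamine (-0.67 ± 0.16, adjusted p = 0.0480), Slc13a3, a dicarboxylate carrier (-0.60 ± 0.12, adjusted p = 0.0227), and Rhbg, an ammonium channel (-1.04 ± 0.25, adjusted p = 0.0538). The others that fell were Lgr5 (-0.52) and the feedback inhibitors Znrf3 (-0.28), Nkd1 (-0.33) and Notum (-0.46). In females 0 rose and 0 fell by limma and the median was 0.01. That female median changed with the arrays used. Within prefix G073 (4 f-WS and 5 f-LF pups) it was -0.09, with 2 targets called lower and 5 of 19 positive. There 78 of all genes were called lower. Within G074 (2 f-WS and 4 f-LF pups) it was 0.17, with 0 called and 18 positive. Without number 48, which held 2 of the f-WS pups, it was 0.11, with 0 called and 16 positive. Without m-LF6 and m-WS1, 6 of the 19 fell in males, with the number as a random block or with pups sharing number and sex averaged 5 did, and on G074 arrays 0 did. Over all genes, calls lower in males were 401, 213, 144 and 42 under these settings, in that order. The list was written with earlier results of these data known, and it was not tested as a set.

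**Figure D5:**
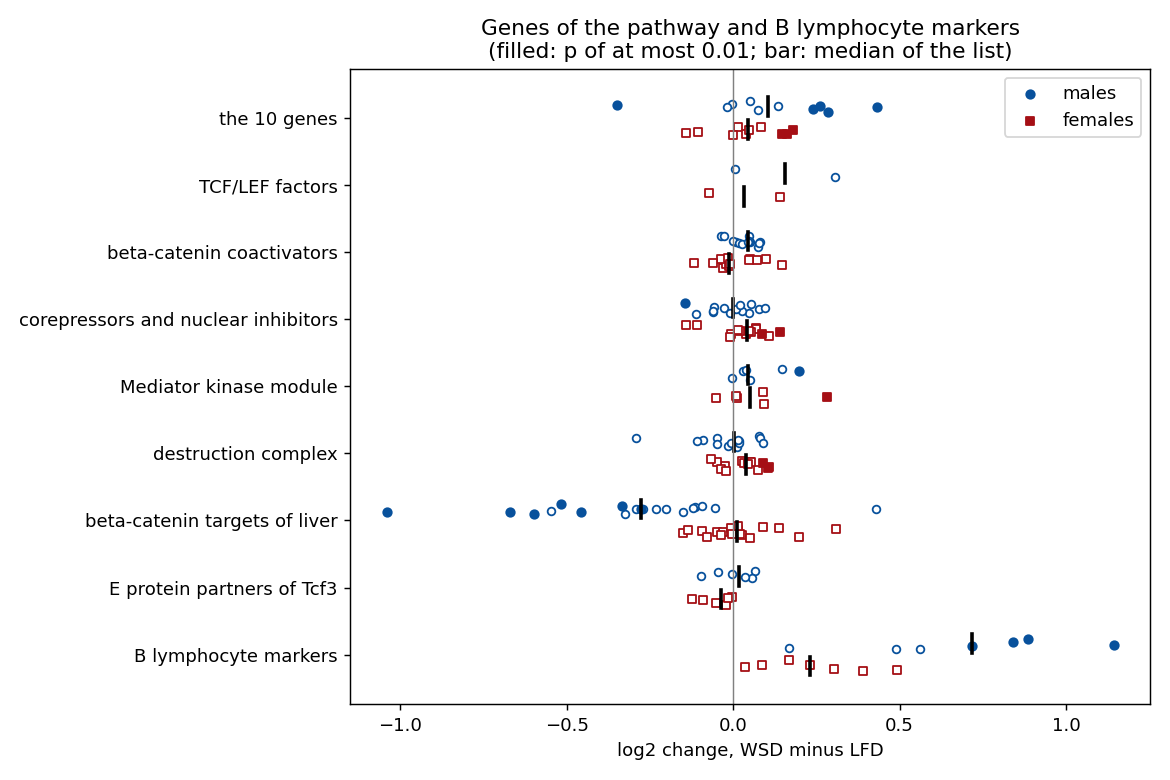
Log2 change (WSD minus LFD) of each tested gene in the 10 genes, 7 further gene lists and the B lymphocyte markers, males as circles and females as squares; filled symbols have p of at most 0.01 and black bars give list medians. In males the targets lie mostly left of 0 (median -0.28) and the B lymphocyte markers right of it (median 0.72).

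Among other cell types, neutrophil and myeloid precursor markers were higher on WSD by nearly as much in males as B lymphocyte markers. Hepatocyte markers showed 0 of 8 calls in either sex, with summed signals of 51553 to 54396 in m-WS and 49665 to 54711 in m-LF. Of 10 neutrophil and myeloid precursor markers 3 rose in males (S100a9, Ltf and Cxcr2) and 0 in females. All 10 were higher in WSD males, with a median of 0.67, and 8 in WSD females, with a median of 0.38. The sums were 804 to 1348 in m-WS and 399 to 1481 in m-LF, where m-LF5 (1481) and m-LF6 (1062) were high and the other 4 at most 591, and they were 577 to 1417 in f-WS and 548 to 1591 in f-LF. Single genes fell in males among endothelial (Clec4g, -0.38) and stellate cell markers (Lrat, -0.24), and Tfrc rose in females among erythroid markers (0.18). T lymphocyte markers (4 tested, with Cd3d below 20 on all arrays) and Kupffer cell markers (7 tested) showed 0 calls, with medians of -0.15 and -0.07 in males, and 0 of either list were higher in WSD males. Tle1 ran against the myeloid sum at r = -0.71 over the 27 pups and -0.61 after group means were removed. Tcf3 ran with that sum at r = 0.58 (0.43 after group means were removed). With the hepatocyte sum, r was 0.49 (0.63) for Tle1 and -0.57 (-0.66) for Tcf7l2. For Tcf7l2, r was 0.59 (0.67) with the summed T lymphocyte markers and 0.48 (0.48) with the Kupffer cell sum. It was 0.44 (0.50) with the endothelial sum and -0.56 (-0.46) with the bile duct sum. The part of any of these cell types in those values was not tested.

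Genes with the most similar pattern over the 27 arrays, among the other 13278 tested, were taken as the 2 with the highest Pearson r for each gene. Tle1 was closest to Grb14 (r = 0.89) and Lpin1 (0.87), and Hdac2 to Hsp90b1 (0.88) and Brix1 (0.86). Tcf3 was closest to Coro1a (0.88) and Pax5 (0.83), of which Pax5 is on the list of B lymphocyte markers. Ctnnb1 was closest to Wdr26 (0.86) and Prdx4 (0.83), Ctnnbip1 to Cyp2b10 (0.85) and Eef2k (0.78), and Sox9 to Cyp4b1 (0.84) and Elapor1 (0.83). Tle3 was closest to Krt20 (0.81) and Mctp2 (0.81). The weakest best matches were those of Tle2 with Ccdc166 (0.70) and Sirt2 (0.69), Tcf7l2 with Ppp1r21 (0.74) and Slc29a3 (0.74), and Med12 with Sdhc (0.75) and Fxyd7 (0.73).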

How the data were processed

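Liver RNA of 27 pups had been hybridised to Affymetrix Mouse Gene 1.1 ST arrays, and per the labels and methods the authors computed deposited log2 values by robust multiarray analysis (RMA). The table held 35556 probe sets, of which 21218 named a single gene, 1881 several and 12457 none, and symbols were updated through Entrez identifiers (GRCm38.p6 table). The methods redefine probe sets by gene before testing, so the deposited probe sets are not those units. The sources do not give the genome build behind the probe sets. Array medians lay between 5.34 and 5.43 log2 units. Genes with a linear signal of at least 20 on at least 4 arrays were tested, with no filter on the interquartile range. The fit used limma 3.58.1 in R 4.3.3 with 4 group means, eBayes with an intensity trend, two-sided contrasts, a threshold of p at most 0.01 as in the study, and Benjamini-Hochberg adjustment over 13279 genes; the code was tested on simulated data. Arrays carry no read depth, and their number limits the precision. The members, gene lists and tests were chosen with earlier results of these data known. Named genes were all 10 members, list genes called in a diet comparison (or the 2 of smallest p), and the 2 most alike genes of each member. Alternatives covered filters, normalization, array weights, blocks, array numbers, prefixes and left-out pups.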

Additional observations from a re-analysis of the deposited data

Results flagged for a closer look

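Ctnnb1 in m-LF5 (10.50 log2 units) lay apart from the other 5 LFD males, of which the nearest was at 10.58; this was 1 of 40 groups of pups searched, where chance alone gives about 2. For 6 genes outside the 10, the male response to WSD was below the female one at p of at most 0.01 with an adjusted p above 0.05: Glul (-0.69), Znrf3 (-0.30), Rhbg (-1.04) and Slc13a3 (-0.56) among the beta-catenin targets, Krt7 (-0.45) among bile duct markers, and Tfrc (-0.33) among erythroid markers. They came from a search of all the gene lists, and were 4 of 19 targets, 1 of 4 bile duct and 1 of 6 erythroid markers tested. Over all genes, 2.45% were called for this difference in either direction and 0 passed adjustment, so nothing is read from the count.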

How the results depend on the processing

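With 1 left-out pup at a time, the count of the 10 genes called in males ran from 4 to 6, in females from 0 to 3, for the difference between sexes in response from 0 to 1, between sexes on LFD from 0 to 3 and on WSD from 0 to 0, and the count of targets that fell in males from 5 to 9. In males 5 of the 10 were called in the reported fit, 1 with pups sharing number and sex averaged, 2 without number 37, 1 without number 48, 3 without number 49 and 0 within prefix G074. Over all genes, male calls higher and lower were 371 and 311 in the reported fit and 138 and 144 with pups averaged. They were 270 and 174 without number 37, and 202 and 174 without number 48. Without number 49 they were 213 and 187, and within prefix G074 they were 51 and 42. In females 3 of the 10 were called, and 0 with arrays centred on their median, with same-number arrays averaged, without number 48 or 49 and within either prefix (each 0). Over all genes, female calls higher and lower were 486 and 197 in the reported fit, 272 and 354 with median centring and 159 and 67 averaged. They were 325 and 201 without number 48, and 138 and 79 without number 49. Within G073 they were 170 and 78, and within G074 they were 148 and 115. In females 1 of the 10 was called after repeated quantile normalization, with the number as a random block, and without number 37 or 40. All genes then gave 317 and 342, 350 and 147, 734 and 270, and 304 and 103 calls higher and lower, in that order. Single pups also lowered the female count of the 10 to 1 (f-LF1, f-LF2, f-LF3, f-LF6, f-LF8, f-WS2 and f-WS5) or 0 (f-LF7, f-WS3 and f-WS6). Over all genes, female calls higher and lower were 401 and 162 without f-LF7, 362 and 123 without f-WS3 and 334 and 159 without f-WS6. For the pups that left 1, between 421 and 574 genes were called higher and between 163 and 217 lower. For the difference in response, 2 of the 10 were called without number 50 (Hdac2 and Sox9) and 1 without m-LF5 (Hdac2), against 0. Over all genes, calls higher and lower were 166 and 279 without number 50 and 147 and 177 without m-LF5, against 155 and 170. Between the sexes on LFD, 0 of the 10 were called with median centring, averaged arrays, without number 37 or 49, within G074 and without m-LF4, and 1 with quantile normalization, without number 40, or without m-LF1, m-LF2, f-LF1, f-LF2, f-LF4, f-LF5 or f-LF6, against 2. Over all genes, calls higher and lower in LFD males were 61 and 117 in the reported fit, 119 and 77 centred and 18 and 47 averaged. They were 36 and 100 without number 37, 28 and 63 without number 49, and 54 and 109 without number 40. Within G074 they were 18 and 26, without m-LF4 34 and 76, and with quantile normalization 84 and 87. The targets that fell in males were 7, but 11 with males alone, 4 without number 37, 4 without number 40 and 0 within G074. Over all genes, calls lower in males were 311, but 295 with males alone, 174 without number 37, 203 without number 40 and 42 within G074. The cause was not tested.

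The shared replicate numbers of the titles do not pair the pups (correlations of deviations from -0.25 to 0.37). With a replicate block 5 of the 10 were called in males, 1 in females (Tle3) and 1 between sexes on LFD. All genes then gave 409 and 305, 447 and 211, and 82 and 131 calls higher and lower, in that order.

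Sign changes were limited to genes that were not called in that sex. Ctnnb1 in males turned to 0.00587 with quantile normalization, 0.000161 with the random block, 0.00589 without number 37, 0.0238 without number 40, 0.012 without number 49, 0.000625 within prefix G074 and 0.0138 without m-LF6 and m-WS1 (single pups -0.0186 to 0.0156). Tle2 in males turned to -0.0038 within prefix G074. Hdac2 in males turned to 0.0688 without number 37 and 0.0689 within prefix G073 (single pups -0.0696 to 0.0477). Ctnnb1 in females turned to -0.0073 with median centring, -0.00875 with quantile normalization, -0.00862 without number 39, -0.0187 without number 49 and -0.0252 within prefix G073 (single pups -0.00735 to 0.0331). Tcf7l2 in females turned to 0.0193 without number 40, 0.0114 without number 48, 0.0112 without number 49, 0.00243 without number 50, 0.0158 within prefix G074 and 0.000936 with the replicate block (single pups -0.0277 to 0.0235). Sox9 in females turned to -0.0147 without number 37, -0.0745 without number 48 and -0.186 within prefix G074 (single pups -0.0185 to 0.0915). Med12 in females turned to -0.112 within prefix G074. Each of the 10 has 1 probe set, so averaging the probe sets of a gene left their values as they were, and the same 5 were called in males and the same 3 in females. Groups of 6 to 9 pups and numbers nested in diet limit all of these values.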

Other observations

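Among the beta-catenin targets, Myc had the single positive change in males (0.43 log2 units, adjusted p = 0.679), and Axin2, a direct feedback target, changed by -0.29 (adjusted p = 0.231); both were picked after their values were seen.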
